A study of Homo sapiens with 16 samples.

Results

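Caco-2 is a human colon carcinoma line that is widely used as a model of the intestinal epithelium. Its response to PT-G, gliadin digested with pepsin and trypsin, was compared with cells kept in medium (MED-CTL), using 8 of the 16 arrays of the study: the 4 labelled PTG and the 4 labelled MEDIUM. All cells were undifferentiated, stood in MEM with 1% fetal calf serum for 6 h, and were detached with trypsin-EDTA before RNA extraction, whatever the treatment. PT-G was heated after digestion to inactivate the enzymes, and its concentration is not given in the sources used here. The other 8 arrays held cells given PT, the same digestion mixture without gliadin (4 arrays), or 150 µg/ml of the synthetic gliadin peptide p31-43 (4 arrays). The 4 replicates were independent experiments with cells 1 to 2 passages apart, of the same line. MED-CTL cells received neither gliadin nor heated enzymes, so that the effects of these 2 components cannot be told apart in this comparison.

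Gliadin is the alcohol-soluble fraction of wheat gluten, and its peptides trigger coeliac disease, in which the mucosa of the small intestine is damaged. Epithelial cells are the first to meet these peptides. When such cells are stimulated from outside, kinases of the MAPK cascade switch on early response genes within minutes to an hour, many of which encode short-lived transcription factors and feedback inhibitors. Secreted ligands, receptors, adaptors of the cytoskeleton and metabolic genes follow. The account below is mainly of genes outside a list of early response genes, both higher and lower. All arrays are of 6 h, so that no order in time can be read from them.

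The arrays were Agilent single-colour arrays, and levels are given as deposited, as log2 intensity after quantile normalization, where a difference of 1 is a 2-fold difference. The median intensity of the 8 arrays lay between 153 and 278 over a median local background of 48 to 55.5, and 29573 to 33947 spots per array were well above background. The 4 slides that carried these arrays each held 1 MED-CTL and 1 PT-G array, so that every gene has a PT-G minus MED-CTL difference within each slide. Arrays of the same slide deviated from their group means in the same direction (correlations of 0.611 to 0.859 over all probes, and probes are not replicates). The markers fitted the epithelial label: EPCAM, CDH1, KRT8, KRT18, KRT19 and VIL1 had mean levels of 15.9 to 18.1 in both groups, and 8 of the 9 epithelial markers were well above background on every array, the exception being CDX1. PTPRC, the leukocyte surface phosphatase, and CDH5 of endothelium were not well above background on any of the 8 arrays, whereas PECAM1 (8.54 and 8.65 on MED-CTL and PT-G arrays), CD14 (9.61 and 9.53) and PDGFRB (8.56 and 9.06) were above it on all of them. The 12 markers of fibroblasts, immune cells and endothelium included 0 called genes. When slides were blocks in limma, PDGFRB was higher (0.51, adjusted p = 0.00753) and COL3A1, a fibroblast collagen, lower (−0.46, adjusted p = 0.0157). The part of such cells in the results was not tested. A lower level in such bulk RNA cannot be told apart from fewer cells of a kind.

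With PT-G, 151 genes rose and 89 fell of 17020 with a symbol, each taken by its brightest probe, at a Benjamini-Hochberg adjusted p under 0.05 in limma (0.887% and 0.523% of the genes tested). Over all 41000 probes the counts were 239 higher and 142 lower, and 3259 had an unadjusted p under 0.05. The genes that rose did so by a median of 0.777 on the log2 scale and those that fell by a median of −0.647. A change of more than 1 was reached by 43 of the risen genes but by only 5 of the fallen ones. Of the 240 called genes, 29 belonged to a list of early response genes. Among the 98 called genes with several probes, 12 had every probe called. All 240 moved in the same direction on each of the 4 slides. In 239 of them the PT-G arrays did not overlap the MED-CTL arrays, as was the case for 3.85% of all probes. These genes were called by a test on the same arrays, so that neither count is independent support.

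The number of calls depended on whether the slide was accounted for. With the slide as a block in limma, 1083 genes were higher and 987 lower (6.36% and 5.8%), and these included all 240. When each array was scaled by its median instead of by quantiles, 74.7% of the called probes were higher, against 62.7% with quantiles.

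The gene with the largest rise outside the early response list was TNS4, a tensin family member of integrin adhesions that lacks the actin-binding part of the other tensins. Its log2 intensity was 9.24, 8.09, 9.24 and 8.57 on MED-CTL arrays 1 to 4 and 10.09, 11.24, 11.08 and 10.80 on PT-G arrays 1 to 4. Every PT-G array exceeded every MED-CTL array. Groups without overlap were required of all genes listed among the largest rises and falls, so that this is no added support for them. The lowest TNS4 arrays of both groups shared a slide. The change was 2.02 (SE 0.35, limma, adjusted p = 0.0142) and lay between 1.84 and 2.23 within slides, a 4.05-fold rise.

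EDN1, which encodes the peptide endothelin-1, stood at 13.17, 12.23, 12.07 and 12.61 on the MED-CTL arrays and at 14.17, 14.44, 13.79 and 14.21 on the PT-G arrays. The groups were apart, and the MED-CTL arrays were more spread (SD 0.49) than the PT-G arrays (SD 0.27). It rose by 1.63 (SE 0.26, limma, adjusted p = 0.0085). SSTR2, a receptor for the inhibitory peptide somatostatin, read 8.02, 7.45, 7.38 and 7.57 without and 8.76, 9.07, 9.28 and 9.62 with PT-G. The lowest PT-G array lay above the highest MED-CTL array, and both probes of the gene were called. Its rise was 1.58 (SE 0.19, limma, adjusted p = 0.00141). BDNF, a neurotrophin, rose by 1.32 (SE 0.29, limma, adjusted p = 0.048) and was close to the threshold, while its differences within slides were 1.07 to 1.57.

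ZNF143, a transcription factor of many housekeeping promoters, had the smallest adjusted p of all genes named here. Its level was 10.43, 10.00, 10.22 and 10.16 on MED-CTL arrays and 11.49, 11.53, 11.38 and 11.68 on PT-G arrays. The arrays of each group lay close together, with nearly 1 log2 unit between the groups. The rise was 1.32 (SE 0.08, limma, adjusted p = 1.23e-05), although the gene's other probe differed by only 0.13. MAP3K8, the kinase TPL2 that feeds the MAPK cascade, had 9.11, 9.01, 8.76 and 9.17 on MED-CTL arrays and 10.01, 10.20, 10.18 and 10.60 on PT-G arrays. It was higher on each PT-G array than on any MED-CTL array, by 1.24 in the fit (SE 0.13, limma, adjusted p = 0.000552). ARL14, a small GTPase of the ARF family, rose by 1.46 (SE 0.29, limma, adjusted p = 0.0296), with differences of 1.16 to 1.77 within slides. TMEM151A, a membrane protein (TMEM151 on the array), rose by 1.34 (SE 0.16, limma, adjusted p = 0.00147).

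NR1D1 (1.49), HSPA6 (1.37), CCL20 (1.32) and GDF15 (1.23) completed the 12 genes with the largest rises and are described with their groups. Of the 23 genes with the largest rises and falls that are reported here, 15 kept their call in limma when any 1 of the 8 arrays was left out. Leaving out PT-G replicate 2 ended the calls of ARL14, BDNF, ELAC1, FZD1, IRAG2, NR1D1, TNS4 and ZSCAN9, with adjusted p-values of at most 0.166 over all arrays left out. All but IRAG2 also lost it without MED-CTL replicate 2, and all but IRAG2 and TNS4 without PT-G replicate 1 or 4 or both. In all, ARL14 and FZD1 lost it without any of 7 arrays, and BDNF and NR1D1 without any of 6. For ELAC1 it was any of 5 and for ZSCAN9 any of 4. Of these 8, TNS4 then ranged from 1.78 to 2.26, ARL14 from 1.24 to 1.58, BDNF from 1.15 to 1.5, NR1D1 from 1.33 to 1.72, ELAC1 from −1.31 to −0.88 and FZD1 from −1.07 to −0.74. ZSCAN9 ranged from −1.1 to −0.76 and IRAG2 from −1.31 to −1.01.

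**Figure D1:**
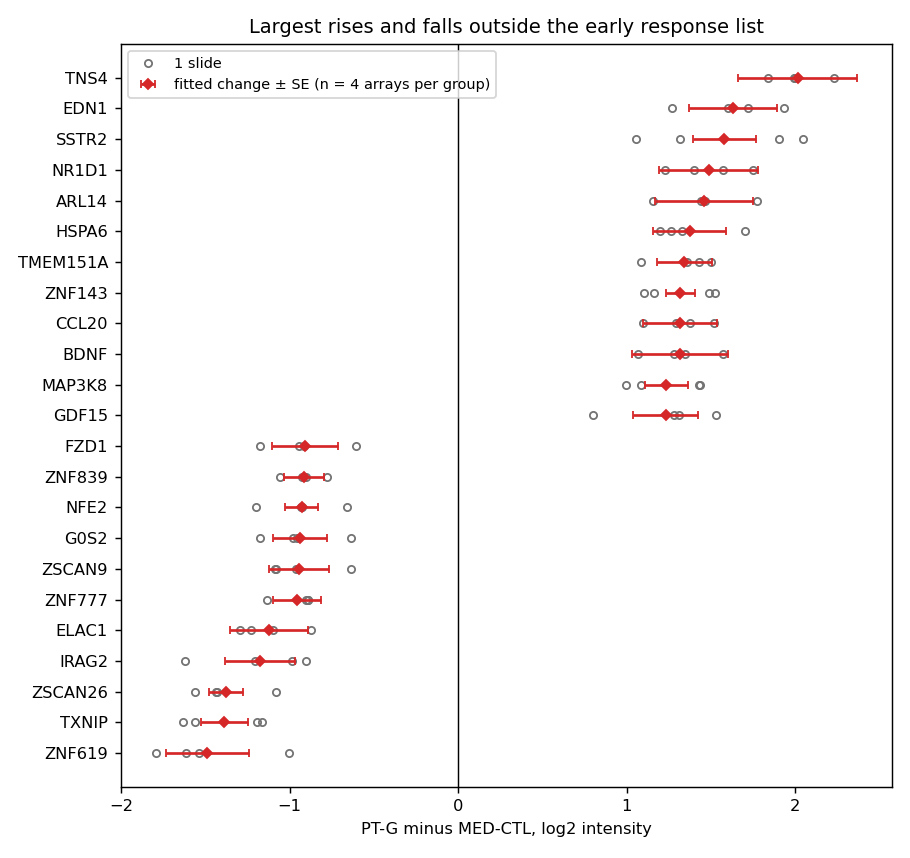
PT-G minus MED-CTL difference in log2 intensity for the 12 genes with the largest rise and 11 with the largest fall outside the early response list. Open circles are the differences within each of 4 slides and red diamonds the fitted change ± SE. All circles of the risen genes lie right of 0 and all circles of the fallen genes left of it, with TNS4 at 2.02 and ZNF619 at −1.49 as the extremes.

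Among the genes that fell, TXNIP encodes an arrestin-domain protein that binds thioredoxin and restrains glucose uptake, and its transcription responds to glucose. Its level was 13.39, 13.92, 13.51 and 13.28 on MED-CTL arrays and 12.28, 12.23, 11.95 and 12.08 on PT-G arrays. All 4 PT-G arrays lay clearly below the lowest MED-CTL array, and they were the less spread of the groups. The fall was −1.39 (SE 0.14, limma, adjusted p = 0.00038), and it was called in all 20 alternative analyses. G0S2, an inhibitor of the lipase that opens lipid droplets, read 12.61, 12.56, 12.48 and 12.04 on MED-CTL arrays and 11.58, 11.43, 11.52 and 11.40 on PT-G arrays. The PT-G arrays were tightly grouped (SD 0.08) and below all MED-CTL arrays, of which replicate 4 was the lowest. G0S2 fell by 0.94 (SE 0.16, limma, adjusted p = 0.0118).

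NFE2, a basic leucine zipper factor that pairs with small MAF proteins, stood at 11.20, 11.22, 11.07 and 10.91 without and at 10.29, 10.00, 10.15 and 10.25 with PT-G. Again no PT-G array reached the lowest MED-CTL array. The change was −0.93 (SE 0.10, limma, adjusted p = 0.000552), and it was called in all 20 alternatives. IRAG2 (LRMP on the array), a membrane protein of the endoplasmic reticulum, changed by −1.18 (SE 0.21, limma, adjusted p = 0.0148). ELAC1, a nuclease that acts on tRNA, changed by −1.12 (SE 0.23, limma, adjusted p = 0.0343).

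The largest fall of all named genes was that of ZNF619, a zinc finger gene. Its 4 MED-CTL arrays read 8.63, 8.88, 9.54 and 8.14 and its PT-G arrays 7.08, 7.09, 7.92 and 7.14. Replicate 3 was the highest in both groups, and the groups did not overlap. The change was −1.49 (SE 0.25, limma, adjusted p = 0.0108).

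**Figure D2:**
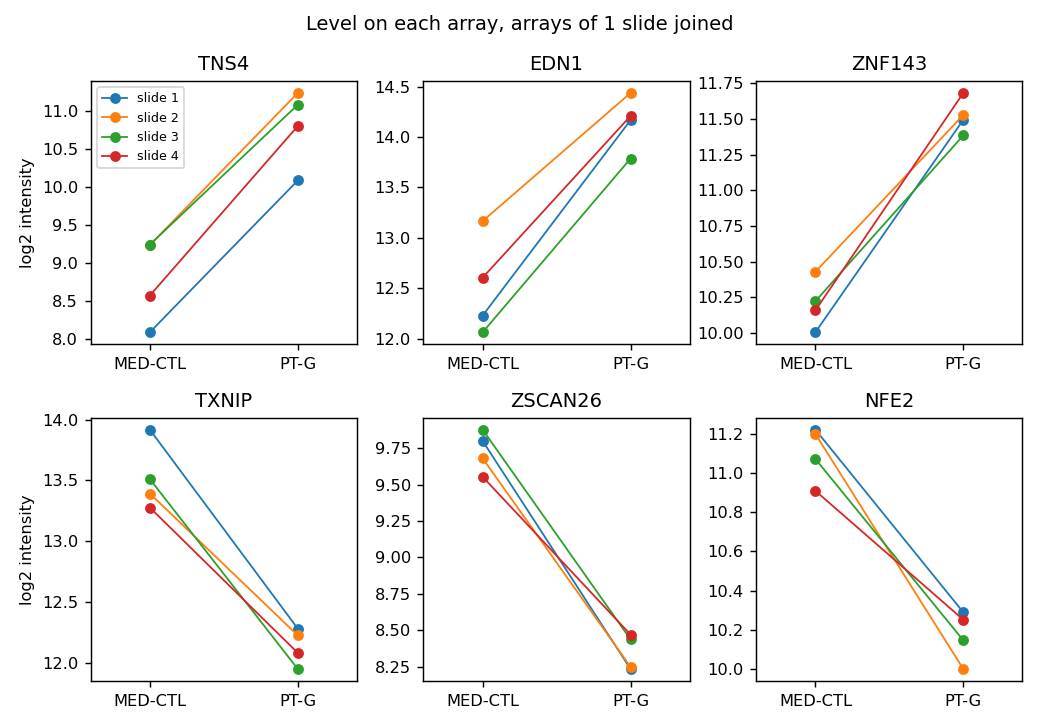
Log2 intensity on each MED-CTL and PT-G array of 3 genes that rose (upper row) and 3 that fell (lower row), with the 2 arrays of a slide joined by a line and each panel on its own axis. Every line rises in the upper row and falls in the lower row, for instance from 10.00 to 11.49 for ZNF143 on slide 1 and from 13.92 to 12.28 for TXNIP.

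By its name ZNF619 belongs to a large group of genes, of which 388 were not called. Of 400 measured genes named ZNF and a number, most of which encode DNA-binding zinc finger proteins, 9 fell and 3 rose, that is 2.25% and 0.75%, beside 0.523% and 0.887% of all genes. Their median change was −0.07, against −0.01 over all genes, and 260 of the 400 lay below 0. With the slide as a block in limma, 64 were lower and 22 higher (16% and 5.5%, beside 5.8% and 6.36%). The members with the largest falls after ZNF619 were ZNF777 (KIAA1285 on the array), at −0.96 (SE 0.14, limma, adjusted p = 0.00571), and ZNF839 (C14orf131 on the array), at −0.92 (SE 0.12, limma, adjusted p = 0.00199). ZNF143 was the member with the largest rise.

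ZSCAN26 (ZNF187 on the array), a zinc finger gene with a SCAN domain, through which such proteins pair with each other, had the smallest adjusted p of the genes that fell. Its level was 9.68, 9.80, 9.88 and 9.55 on MED-CTL arrays and 8.23, 8.25, 8.44 and 8.47 on PT-G arrays. The arrays of a group lay close together, and the gap between the groups was wider than either group. The change was −1.38 (SE 0.10, limma, adjusted p = 2.82e-05), and both probes were called. ZSCAN9 (ZNF193 on the array), with 9.30, 9.71, 10.31 and 9.72 on MED-CTL and 8.63, 8.66, 9.22 and 8.75 on PT-G arrays, changed by −0.94 (SE 0.18, limma, adjusted p = 0.0216). Its highest PT-G array, replicate 3, was just below its lowest MED-CTL array, replicate 1.

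After these values were seen, the genes around ZSCAN26 and ZSCAN9 were looked up, so that what follows is a description without a test of the group. In the RefSeq gene order, 15 protein-coding genes lie on chromosome 6 from ZNF165 to SCAND3, of which 13 were measured and 9 were well above background on all arrays of at least 1 group. Of these, 5 fell and 0 rose. Besides ZSCAN26 and ZSCAN9, they were ZSCAN16 (−0.70, SE 0.12, limma, adjusted p = 0.0138), ZKSCAN4 (−0.79, SE 0.13, limma, adjusted p = 0.00898) and ZKSCAN3 (−0.81, SE 0.13, limma, adjusted p = 0.0101). Of their neighbours, ZSCAN31 changed by −0.40 (limma, adjusted p = 0.479, and 0.00549 with the slide as a block), PGBD1 by −0.35 and ZNF165 by 0.44 (limma, adjusted p = 0.731, and 0.0246 with the block), none of them called without the block. ZNF165 was thus higher with the block, on all 4 slides, in contrast to the genes that fell. ZKSCAN8, NKAPL, GPX6 and SCAND3 were not well above background on any of the 8 arrays.

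Over the genome, 23 genes named ZSCAN or ZKSCAN were measured, and 6 of them fell (26.1%, beside 0.523% of all genes) while 0 rose. The 7 measured on chromosome 6 had a median change of −0.79 and contributed 5 of the 6, and the 16 elsewhere had a median of −0.16 and contributed ZKSCAN2, on chromosome 16 (−0.67, SE 0.15, limma, adjusted p = 0.0461). The count of 6 became 4 with median scaling, 5 with the processed signal, 9 when slides were blocks and 1 with only the 2 groups in the fit. It was 3 without PT-G replicate 2, 4 without MED-CTL replicate 2, PT-G replicate 1 or PT-G replicate 4, and 5 without any other array. The proteins of this family resemble each other in sequence, and how far a probe reads its neighbours' transcripts was not tested.

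**Figure D3:**
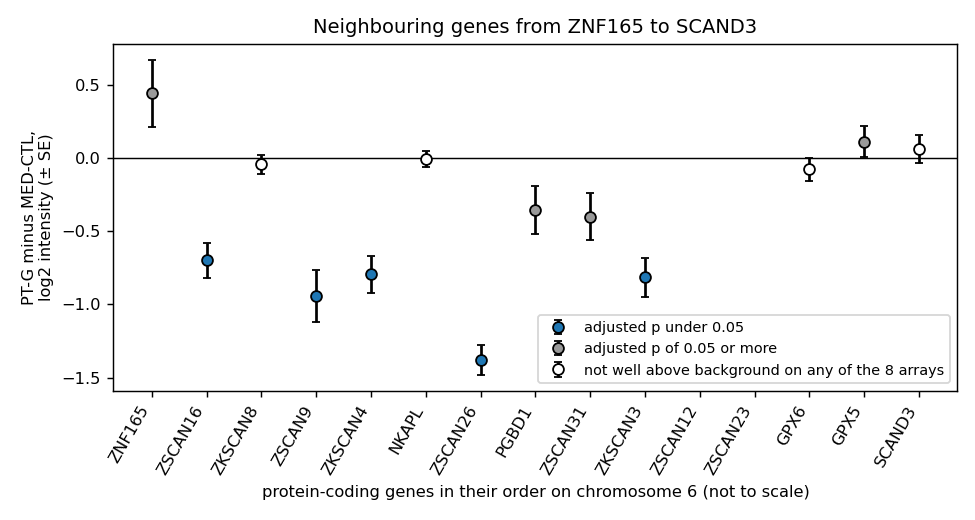
PT-G minus MED-CTL change in log2 intensity (± SE, n = 4 arrays per group) of the measured genes from ZNF165 to SCAND3 in their order along chromosome 6. The 5 filled blue points, from −0.70 for ZSCAN16 to −1.38 for ZSCAN26, passed the adjusted threshold, and the open points were not well above background on any of the 8 arrays.

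Secreted ligands and their receptors were among the genes that rose. In the TGF-beta and BMP pathway, 4 of 27 measured genes rose (14.8%, beside 0.887%) and 0 fell. GDF15, a stress-induced ligand of the family, had 15.25, 14.74, 14.34 and 14.54 on MED-CTL arrays and 16.02, 16.05, 15.87 and 15.85 on PT-G arrays. The PT-G arrays agreed closely and all lay above the MED-CTL arrays, giving a rise of 1.23 (SE 0.19, limma, adjusted p = 0.00809). The ligand BMP2 rose by 0.99 (SE 0.21, limma, adjusted p = 0.0353), the receptor TGFBR2 by 0.69 (SE 0.14, limma, adjusted p = 0.032) and ID2, a target gene that blocks basic helix-loop-helix factors, by 0.78 (SE 0.17, limma, adjusted p = 0.0427). The median of the list was 0.14. With the slide as a block 11 members were higher (40.7%, beside 6.36%) and 1 lower. The count of 4 fell to 1 without MED-CTL replicate 4, PT-G replicate 3 or PT-G replicate 4, to 1 with an intensity trend or the processed signal, and to 0 with only the 2 groups in the fit.

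Of 32 cytokines, chemokines and their receptors, 3 rose and 0 fell. CCL20, which attracts dendritic cells and lymphocytes to mucosal epithelium through CCR6, read 8.06, 7.39, 7.54 and 7.88 on MED-CTL arrays and 8.68, 9.44, 8.64 and 9.40 on PT-G arrays. PT-G replicates 2 and 4 were the highest, and none overlapped MED-CTL. It rose by 1.32 (SE 0.22, limma, adjusted p = 0.0109). IL11, a cytokine of the IL6 family, rose by 1.09 (SE 0.19, limma, adjusted p = 0.015). CXCL8 (IL8 on the array), which attracts neutrophils, was not well above background on any MED-CTL array and was above it on all 4 PT-G arrays, so that only a bound can be given. It was at least 1.72-fold higher with PT-G (limma, adjusted p = 0.0128). The median of the list was 0.05.

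In the list of TNF receptors and NF-kB genes, 5 of 44 rose and 0 fell. Apart from MAP3K8, they were TNFRSF10B, the death receptor for TRAIL (0.86, SE 0.17, limma, adjusted p = 0.0338), TNFRSF11B, the secreted decoy osteoprotegerin (0.84, SE 0.13, limma, adjusted p = 0.0085), BCL3, a nuclear co-activator of NF-kB p50 and p52 (0.76, SE 0.10, limma, adjusted p = 0.00321), and the inhibitor NFKBIE (0.60, limma, adjusted p = 0.02). TNFRSF10B was called on 1 of 2 probes, with the other at 0.48. The list's median was 0.20, and 33 of 44 lay above 0. Of the EGF family, HBEGF, a ligand of the EGF receptor, was the only gene called of 14 (7.14%, beside 0.887% of all genes). It rose by 0.94 (SE 0.13, limma, adjusted p = 0.00284). Of the 14, 9 lay below 0, as did 8818 of all 17020 genes. Only 8 of the 14 were well above background on all arrays of at least 1 group. PTGER2, the prostaglandin receptor EP2, rose by 0.99 (SE 0.18, limma, adjusted p = 0.0189) as the only gene called of 20 for prostaglandin synthesis and reception.

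Signalling inside the cell contributed smaller groups. Of 40 small GTPases and their partners, 3 rose: RRAD, a GTPase that restrains calcium channels (1.12, SE 0.17, limma, adjusted p = 0.00518), DIRAS1, a RAS-like growth inhibitor (0.58, SE 0.11, limma, adjusted p = 0.0183), and the guanine nucleotide exchange factor ARHGEF5 (0.55, SE 0.08, limma, adjusted p = 0.00518). Of 33 protein tyrosine phosphatases, PTPRE rose by 0.78 (SE 0.11, limma, adjusted p = 0.00476) and PTPN3 by 0.64 (SE 0.09, limma, adjusted p = 0.00404). Each was called on 1 probe only, with other probes as low as 0.35 for PTPRE and 0.25 for PTPN3. ARHGEF5 too was called on 1 of 2 probes, with the other at 0.33. Besides TNS4, the actin-binding ENC1 rose among 45 genes of the cytoskeleton and adhesion (0.63, SE 0.13, limma, adjusted p = 0.0353). No fall was called in these 3 lists.

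Cell junction genes showed no call in 34 measured. CLDN3, a claudin of tight junctions, differed by 0.24 (SE 0.08, limma, adjusted p = 0.274).

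Of the regulators of transcription outside the early response, 2 of 44 nuclear receptors rose. NR1D1, the clock repressor REV-ERBα, read 11.12, 10.06, 10.06 and 10.38 on MED-CTL arrays and 11.81, 12.35, 11.46 and 11.95 on PT-G arrays. MED-CTL replicate 1 was the highest of its group but below every PT-G array. NR1D1 rose by 1.49 (SE 0.29, limma, adjusted p = 0.0283). PPARA, the receptor that drives fatty acid oxidation, rose by 0.91 (SE 0.13, limma, adjusted p = 0.00413). Of its 4 probes 2 were called, and the lowest differed by 0.14. BHLHE40, another clock repressor (BHLHB2 on the array), rose by 1.49 (SE 0.14, limma, adjusted p = 0.000178), which made 2 of 23 clock genes; it is also an early response gene.

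AHR, the receptor for dioxin and dietary indoles, rose by 0.90 (SE 0.17, limma, adjusted p = 0.0231). TIPARP, its target that feeds back on it, rose by 0.54 (SE 0.11, limma, adjusted p = 0.0357). These were 2 of 12 genes of that pathway (16.7%, beside 0.887% of all genes). The list was split, with 6 members above and 6 below 0 and a median of 0.06. Its lowest member changed by −1.08 and was not called. The count of 2 became 0 or 1 when 1 array was left out. NFE2L2, the NRF2 regulator of antioxidant genes, rose by 0.75 (SE 0.16, limma, adjusted p = 0.0365), with a second probe at 0.00, and was the only gene called of 28 in its list. In the WNT list of 47, 1 rose and 2 fell (2.13% and 4.26%, beside 0.887% and 0.523% of all genes). The receptor FZD9 rose (0.55, SE 0.10, limma, adjusted p = 0.0169), whereas ASCL2, the stem cell factor of the crypt, fell (−0.81, SE 0.12, limma, adjusted p = 0.00476). The other ASCL2 probe differed by −0.52 and was not called. The receptor FZD1 fell as well (−0.91, SE 0.19, limma, adjusted p = 0.0427), although its other probe differed by only −0.19.

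The cell cycle inhibitor CDKN1A read 9.05, 8.61, 8.06 and 8.45 on MED-CTL arrays and 9.88, 10.28, 9.24 and 9.58 on PT-G arrays. Levels varied between slides, with replicate 3 lowest in both groups, yet the difference within slides was 1.13 to 1.27. CDKN1A rose by 1.20 (SE 0.26, limma, adjusted p = 0.0455, and 9.12e-06 with the slide as a block) on its brighter probe, and the other probe differed by 0.31. It was the only gene called of 35 CDK inhibitors, cyclins and p53 targets, and its call was lost without MED-CTL replicate 2, 3 or 4 or PT-G replicate 1, 2 or 4 (change of 1.02 to 1.37, limma, adjusted p of at most 0.153). When slides were blocks, 5 members of that list were higher and 6 lower. MCL1, which restrains apoptosis, was the only gene called of 37 in the BCL2 and caspase list (0.59, SE 0.09, limma, adjusted p = 0.00895). Of its 3 probes 1 was called, and their changes ran from 0.48 to 0.84.

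Of 62 genes of DNA replication, chromatin assembly and repair, 2 fell and 0 rose. They were CHAF1B, a subunit of the assembly factor CAF-1 (−0.49, SE 0.10, limma, adjusted p = 0.0373), and the excision repair nuclease ERCC5 (−0.47, SE 0.10, limma, adjusted p = 0.0388). The list's median was −0.17, and 52 of 62 members lay below 0. With the slide as a block 11 were lower (17.7%, beside 5.8% of all genes) and 1 higher. Among these 11 were MCM5, a subunit of the replicative helicase (−0.51, limma, adjusted p = 0.00328 with the block and 0.464 without), and CDT1, which loads it (−0.38, limma, adjusted p = 0.00146 and 0.122). The 2 calls without the block were lost with median scaling, with the processed signal and with the filter on dim probes.

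Some genes of organelles fell. In peroxisome biogenesis, 2 of 15 fell and 0 rose. The list's median was −0.19, 13 of 15 members lay below 0, and 6 were lower with the slide as a block (40%, beside 5.8%). The count of 2 became 0 without MED-CTL replicate 2 or 3 or PT-G replicate 1 or 2, and also with median scaling, the processed signal, an intensity trend or only the 2 groups in the fit.

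Of 13 genes of coenzyme Q synthesis 0 were called without the block and 6 were lower with it (46.2%, beside 5.8%). COQ3, a methyltransferase of the pathway, stood at 9.48, 9.52, 10.02 and 9.32 on MED-CTL arrays and 9.04, 8.75, 9.17 and 8.86 on PT-G arrays. The groups did not overlap but lay close. The difference was −0.63 (SE 0.15, limma, adjusted p = 0.0861, and 0.00792 with the block). COQ7, a hydroxylase, differed by −0.39 (SE 0.10, limma, adjusted p = 0.106, and 0.00903 with the block). Of 41 genes for the upkeep of the mitochondrial genome, nucleotides and RNA, TK2, the mitochondrial thymidine kinase, fell by 0.56 (SE 0.12, limma, adjusted p = 0.0417), and TACO1, an activator of cytochrome oxidase translation (CCDC44 on the array), by 0.46 (SE 0.09, limma, adjusted p = 0.0319). TK2 lost its call whichever of the 8 arrays was left out (adjusted p of at most 0.123 in limma), and TACO1 without any of 6 of them (at most 0.0996). Neither fall was called with an intensity trend, median scaling, the processed signal, the filter on dim probes or only the 2 groups, whereas 8 genes of the list were lower and 3 higher with the slide as a block. Of 28 citric acid cycle and pyruvate dehydrogenase genes 0 were called. DLD, a subunit of pyruvate dehydrogenase, differed by 0.53 (limma, adjusted p = 0.546).

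Of 40 genes of the primary cilium, the sensory organelle built by intraflagellar transport, 3 fell and 1 rose. IFT46, a transport particle subunit (C11orf60 on the array), changed by −0.86 (SE 0.14, limma, adjusted p = 0.0101). CLUAP1, another subunit, changed by −0.92 (SE 0.20, limma, adjusted p = 0.0481) and was the called gene whose groups overlapped. SMO, the hedgehog signal transducer, changed by −0.40 (SE 0.08, limma, adjusted p = 0.0353).

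Stress proteins other than HSPA6 were seldom called. HSPA6, an inducible HSP70 chaperone, read 6.85, 7.40, 6.69 and 6.82 on MED-CTL arrays and 8.73, 8.56, 7.95 and 8.02 on PT-G arrays. PT-G replicates 1 and 2 were higher than 3 and 4, and no PT-G array overlapped MED-CTL. HSPA6 rose by 1.37 (SE 0.21, limma, adjusted p = 0.00752) and was the only gene called of 30 chaperones, of which 25 lay above 0 and 9 were higher with the slide as a block (30%, beside 6.36%). In the unfolded protein response list of 29, the membrane-bound factor CREB3L4 fell (−0.60, SE 0.10, limma, adjusted p = 0.0107).

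Metabolic genes moved both ways. In the list of arrestin domain proteins and glucose sensing (26 genes), SLC2A8, a glucose transporter of internal membranes, fell with TXNIP (−0.57, SE 0.09, limma, adjusted p = 0.00583). PFKFB3, which makes the activator of phosphofructokinase (0.58, SE 0.07, limma, adjusted p = 0.00147), and PDP2, which activates pyruvate dehydrogenase (0.62, SE 0.13, limma, adjusted p = 0.0468), rose. Only 1 of the 4 PFKFB3 probes was called, and the lowest differed by 0.18. In this list 7.69% rose and 7.69% fell, beside 0.887% and 0.523% of all genes. SLC25A29, a mitochondrial carrier of basic amino acids (0.73, SE 0.15, limma, adjusted p = 0.0342), was the only one of 32 amino acid transporters to be called. CYBRD1, a ferric reductase of the brush border (0.53, SE 0.11, limma, adjusted p = 0.0351), was the only one of 45 genes of metal handling. The other probe differed by only 0.27 for SLC25A29 and 0.09 for CYBRD1.

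Of 48 genes of enterocyte function 1 rose and 1 fell (2.08% each). KLF5, a factor of proliferating crypt cells, rose by 0.83 (SE 0.14, limma, adjusted p = 0.0127). KRT20, a keratin of mature surface cells rose by 0.63 (SE 0.12, limma, adjusted p = 0.0251). It was the only one of the 9 epithelial markers to be called. Of these, 5 lay below 0, with a median of −0.07, and 1 was higher and 1 lower with the slide as a block.

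Most lists had larger counts once slides were blocks, as did all genes (6.36% higher and 5.8% lower). Of the early response genes 51 of 66 were higher. Among signalling lists, 16 TNF receptor and NF-kB genes were higher and 2 lower, 11 cytokines and chemokines higher and 0 lower, 3 EGF family genes higher and 1 lower, and 2 prostaglandin genes higher and 1 lower. Inside the cell, 11 small GTPase genes were higher and 1 lower, 6 phosphatases higher and 2 lower, and 9 genes of cytoskeleton and adhesion higher and 1 lower. Of nuclear receptors 4 were higher and 6 lower, of WNT genes 10 and 5, of clock genes 6 and 1, of AHR pathway genes 3 and 1, and of NRF2 genes 6 and 1. The BCL2 and caspase list had 11 higher and 0 lower, and the unfolded protein response list 4 and 1. The arrestin and glucose list had 6 higher and 4 lower, amino acid transporters 8 and 0, metal handling 4 and 5, sterol and lipid genes 7 and 2, and enterocyte genes 3 and 5. Cilium genes were higher in 5 cases and lower in 8, junction genes in 2 and 2, and citric acid cycle genes in 0 and 2. Of the genes tied to coeliac disease 13 were higher and 4 lower.

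Many calls of list members were lost when 1 array was left out, often whichever array it was. Besides those already given, BMP2, CYBRD1, ENC1, ERCC5, PDP2 and SMO lost their call without any of 7 of the 8 arrays, and CLUAP1, ID2, NAB2, NFE2L2, TGFBR2 and TIPARP without any of 6. It was lost without any of 5 arrays for AHR, CHAF1B, SLC25A29 and TNFRSF10B, of 4 for KRT20, and of 3 for DIRAS1, EGR4 and PTGER2. FZD9 lost it without PT-G replicate 1 or 2, and CXCL8 and IL11 without PT-G replicate 2. The adjusted p of these genes was then at most 0.154 in limma, and none changed sign. The 9 falls among genes named ZNF became 4 to 13, the 5 rises of the TNF receptor and NF-kB list 3 to 5, the 3 rises of the cytokine list 1 to 3, and the 3 falls of the cilium list 1 to 2.

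**Figure D4:**
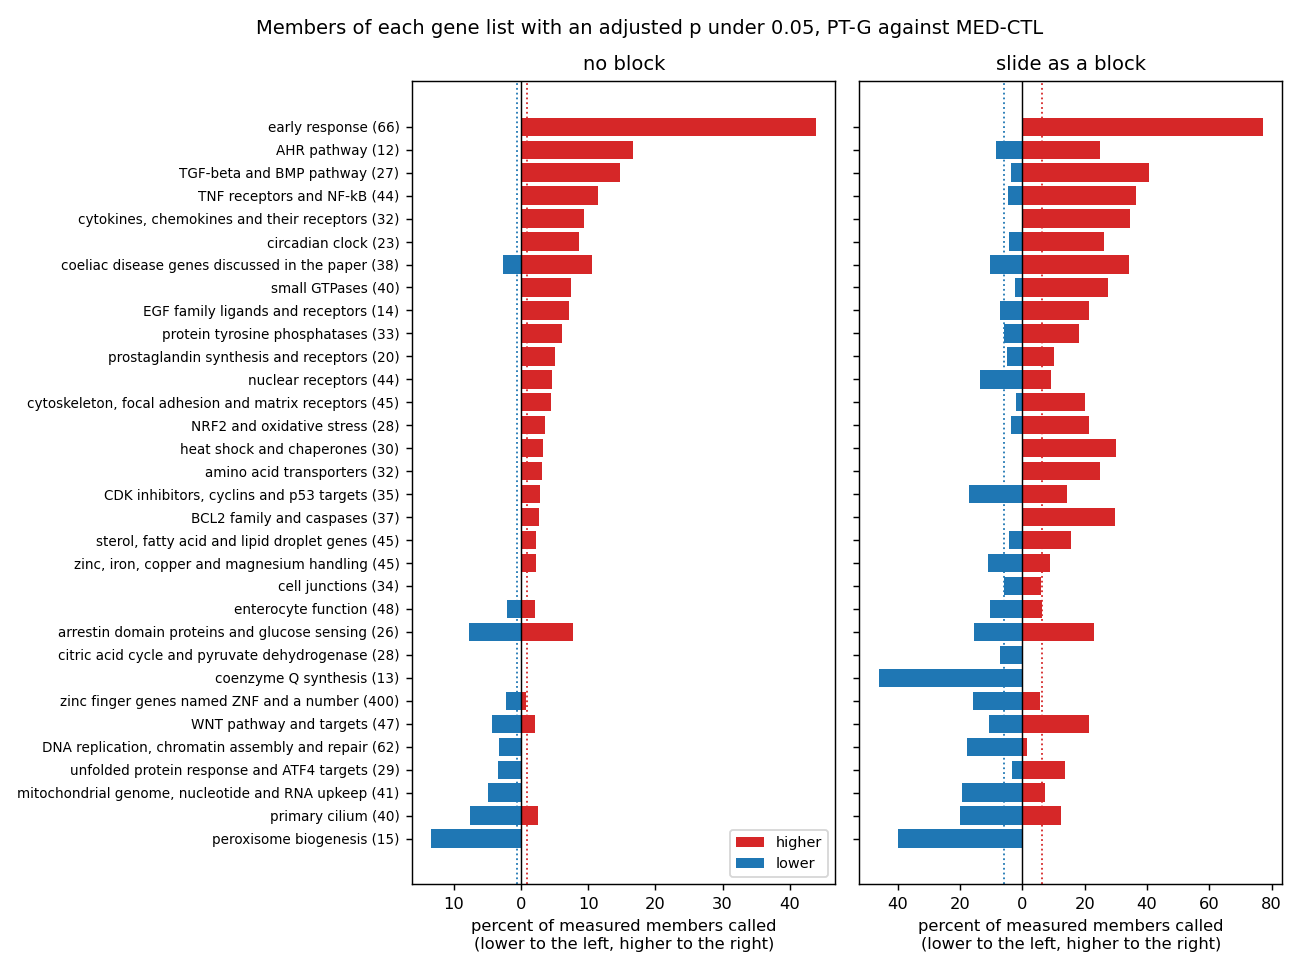
Percent of the measured members of each gene list (number in brackets) that were called higher (red, to the right) or lower (blue, to the left) with PT-G, in the model without slides (left) and with the slides as blocks (right), on separate axis ranges. Dotted lines mark the percentages over all genes, 0.887% higher and 0.523% lower on the left and 6.36% and 5.8% on the right.

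The early response genes themselves rose in 29 of 66 cases and fell in 0. The transcription factors EGR4 (2.99, SE 0.55, limma, adjusted p = 0.0185) and EGR3 (2.91, SE 0.34, limma, adjusted p = 0.00141), the survival gene IER3 (2.89, SE 0.24, limma, adjusted p = 6.3e-05) and the MAPK phosphatase DUSP5 (1.83, SE 0.18, limma, adjusted p = 0.000324) led them. All 66 changes were above 0, with a median of 0.92. Of 38 genes that the study discussed in relation to coeliac disease, 4 rose, namely JUNB (1.78), RGS16 (1.43), HSPA6 and NAB2 (1.00, limma, adjusted p = 0.0315), and 1 fell, NUDT2 (−0.47, limma, adjusted p = 0.0268). The study chose that list with these samples at hand, so its count is not independent evidence of a direction.

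The promoters of 4 named genes with a match to a motif of an early-induced or cAMP-responsive factor are shown, to set the sequence beside the change. Some named genes were left out of this display whatever their match, so that these 4 need not be all that hold one. The 250 bases before the gene start in RefSeq (GRCh38.p14) were searched on both strands for AP-1, the site of FOS and JUN dimers (TGACTCA, which reads TGAGTCA when taken from the other strand), for the cAMP response element CRE (TGACGTCA) and for E2F (TTTCCCGC and, as another form of the site, TTTGGCGC). A promoter was found for 58 of the 87 named genes. Capitals mark the match, and each stretch reads 5′ to 3′ on the gene's strand.
ZNF143 (CRE), chr11:9460788-9460915, plus strand: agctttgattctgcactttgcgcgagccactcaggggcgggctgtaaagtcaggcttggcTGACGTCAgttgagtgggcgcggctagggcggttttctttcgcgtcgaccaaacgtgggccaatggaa
CXCL8 (AP-1), chr4:73740372-73740498, plus strand: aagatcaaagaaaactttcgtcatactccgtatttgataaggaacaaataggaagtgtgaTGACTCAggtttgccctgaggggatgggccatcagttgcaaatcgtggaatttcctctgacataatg
IL11 (AP-1), chr19:55370493-55370619, minus strand: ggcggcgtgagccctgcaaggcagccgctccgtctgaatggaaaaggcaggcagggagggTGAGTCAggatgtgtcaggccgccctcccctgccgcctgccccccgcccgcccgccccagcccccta
HSPA6 (AP-1), chr1:161524341-161524467, plus strand: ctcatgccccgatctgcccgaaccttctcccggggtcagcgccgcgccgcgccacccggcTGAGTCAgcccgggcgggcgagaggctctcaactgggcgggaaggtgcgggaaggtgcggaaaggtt

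The match starts 164 bases before the gene start in ZNF143, 137 in CXCL8 and 96 in IL11. HSPA6 has a second AP-1 match, 244 bases before its start, outside the stretch shown. For AP-1 the shares in the changed genes were near that of all genes. AP-1 letters stood in 3 of the 115 promoters of risen genes (2.61%) and 1 of the 65 of fallen genes (1.54%), beside 404 of 13513 over all measured genes (2.99%). CRE letters stood in 4 of 115 (3.48%) and 0 of 65, beside 2.52%, and E2F letters in 3 of 115 (2.61%) and 0 of 65, beside 2.71%. With the slide as a block, CRE was found in 3.91% of 843 promoters of risen genes and 2.49% of 802 promoters of fallen genes. E2F was found in 2.14% of the former and 3.87% of the latter, and AP-1 in 2.97% and 2.62%.

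The PT arrays, which held the same enzyme mixture without gliadin, allow PT-G to be compared at a like enzyme treatment. Between PT-G and PT, 0 of 41000 probes (0%) passed the adjusted threshold in limma, with 314 at an unadjusted p under 0.05, and 0 of the 87 named genes passed it. The PT comparison used the same MED-CTL arrays, and its own changes are given side by side: TNS4 was 1.62 higher under PT than in medium (limma, adjusted p = 0.0511), EDN1 1.59 (0.0102), ZNF143 1.37 (3.62e-06) and MAP3K8 0.94 (0.00385), all p-values from limma. TXNIP was at −1.13 under PT (limma, adjusted p = 0.00197), NFE2 at −0.90 (0.000725) and ZSCAN26 at −1.72 (3.62e-06). The difference PT-G minus PT was 0.39 for TNS4, 0.29 for MAP3K8, −0.26 for TXNIP and 0.34 for ZSCAN26, the last being the only called gene with an unadjusted p under 0.01 in limma.

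Against p31-43, 302 genes (1.77%) had an adjusted p under 0.05 in limma. The PT-G arrays are the same as in the comparison with medium, so that the calls of these 2 comparisons are not independent. The difference PT-G minus p31-43 was 2.18 for TNS4 (SE 0.35, limma, adjusted p = 0.00834), 1.53 for EDN1 (limma, adjusted p = 0.0113), −1.22 for TXNIP (limma, adjusted p = 0.00082) and −1.28 for ZSCAN26 (limma, adjusted p = 5.69e-05). For the 23 genes of largest rise and fall, the p31-43 arrays differed from MED-CTL by no more than 0.24 in either direction.

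**Figure D5:**
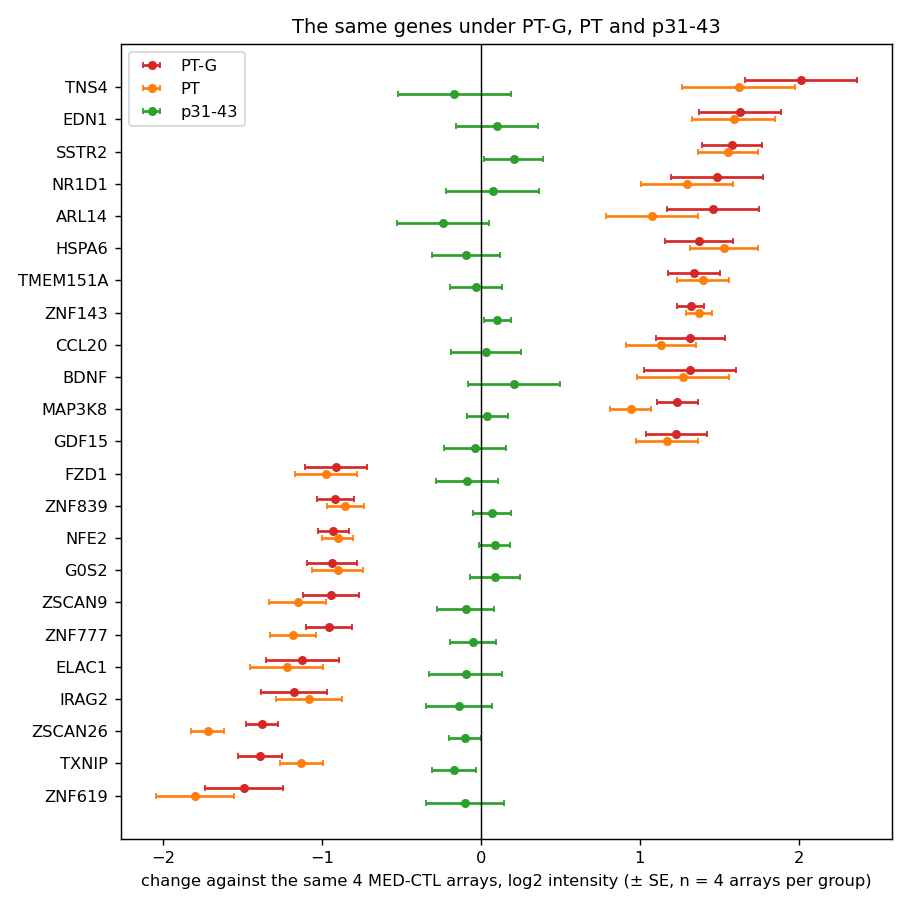
Change in log2 intensity (± SE, n = 4 arrays per group) of the 23 genes of largest rise and fall under PT-G (red), PT (orange) and p31-43 (green), each against the same 4 MED-CTL arrays. The p31-43 points lie within 0.24 of 0, and TNS4 lies at 2.02 under PT-G and 1.62 under PT.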

How the data were processed

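RNA of 16 Caco-2 cultures, 4 per group, was hybridised by the authors to Agilent single-colour arrays on 5 slides. The authors deposited the scanner intensity of each spot, from Feature Extraction, and a table of log2 values, which differ by at most 5e-09 from the median foreground intensity quantile-normalized over all spots without background correction. The deposited log2 values were used. Control spots (1639 of 45015 on each array) were dropped, and spots of a probe were averaged (264 probes had more than 1 spot). The 41000 probes were fitted with limma 3.58.1 in R 4.3.3, all 4 groups in 1 model, with moderated 2-sided tests, 12 residual degrees of freedom and Benjamini-Hochberg adjustment over all probes. The threshold was an adjusted p under 0.05, and 1402 probes had the nominal p under 0.01 used in the study. Precision is limited by the number of arrays. Deposited marks gave the spots well above background. The probes' filter and re-annotation in the methods were not used here.

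Deviations from the group means correlated at 0.389 to 0.859 between MED-CTL and PT-G arrays of the same replicate number and at 0.611 to 0.859 on the same slide. The pairings differ for replicates 1 and 2, with correlations of 0.541 and 0.389 by number. On slides 1 and 2 they were 0.611 and 0.707. Whether equal numbers mark the same experiment is not given by the labels, and replicate and slide were both tried as blocks. The authors' methods name no block.

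A gene was taken by its brightest probe. Names were updated by RefSeq accession (23434 of 24863 matched). Named genes were the 12 largest rises and falls among called genes outside the early response list, without overlap and well above background in the higher group, and up to 4 called members of each of the gene lists, or the 2 of smallest p where none was called. Some named genes are not reported here. NFKBIE, NUDT2, MCM5, CDT1 and the neighbours of ZSCAN26 were named beyond this rule after their values were seen. The members and lists were chosen with earlier results of these data known. Alternatives were another signal or background correction (normexp, offset 50), median scaling, outlier spots left out, a filter on dim probes, every spot on its own, blocks, array weights, an intensity trend, only the groups compared, and each array left out. The model was tested on simulated data. Probe positions are not given, since the files name no build, and promoter positions and gene order are those of RefSeq GRCh38.p14.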

Additional observations from a re-analysis of the deposited data

Results flagged for a closer look

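Of 158 groups of 4 arrays examined for the named genes, 5 held an array far from the other 3, where chance marks about 1 in 20 groups. On the PT-G arrays, replicate 3 was apart for 3 genes: DLD read 14.85 there and 14.63 to 14.67 on the others, PTPN3 read 10.38 against 10.61 to 10.64, and ZNF619 read 7.92 against 7.08 to 7.14. KLF5 read 13.01 in MED-CTL replicate 4 against 13.39 to 13.45, and NFE2L2 read 13.43 in the same replicate against 12.97 to 13.04. All but DLD were called.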

How the results depend on the processing

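The count of 381 called probes for PT-G against MED-CTL ranged widely, and none of the 75 named genes that were called changed sign. It was 3788 with the slide as a block, 1598 with the replicate block, 1772 with only the 2 groups and the slide block, 1489 with array weights, 186 with median scaling, 143 with the processed signal, 181 with an intensity trend and 36 with only the 2 groups. It lay between 167 (without PT-G replicate 2) and 386 when 1 array was left out, and fell to 188 without MED-CTL replicate 2 and to 198 when PT-G replicate 4 was left out. Of the 75 named genes called, 75 were called with either block, 73 with only the 2 groups and the slide block, 50 with median scaling, 49 with an intensity trend, 36 with the processed signal, 10 with only the 2 groups, and 40 to 59 without 1 array. BHLHE40, DUSP5, IER3, MAP3K8, NFE2, TXNIP, ZNF143, ZNF839 and ZSCAN26 were called under all 20 alternatives. The number of named genes that differed from PT was 0 throughout, and the number that differed from p31-43, 63, became 44 to 69 without 1 array, 79 with the slide block, 45 with median scaling, 47 with the processed signal and 50 with an intensity trend. The cause of these differences was not tested.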
